A study of Homo sapiens with 6 samples.

Results

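The CpGs with the deepest coverage were examined in bisulfite sequencing of the established human embryonic stem cell line H9, with 3 libraries from conventional and 3 from reset cells. A CpG was taken when it lay on an autosome and had at least 30 calls in every one of the 6 libraries, a call being 1 read scored as methylated or unmethylated at that site, with the strands of a CpG summed. The rule gave 2776 of the 26752702 autosomal CpGs of the GRCh37 reference sequence, and those within 1 kb of each other were merged into 249 loci. They were thus selected on coverage in all libraries and not on methylation. Of the loci, 85 held a single member CpG and the largest held 334. All cells were kept in 5% oxygen. Conventional cells were cultured on mouse embryonic fibroblast feeders with 20% KSR, a serum replacement, and 10 ng/ml bFGF. Reset cells had received doxycycline-inducible NANOG and KLF2 transgenes carried by piggyBac vectors, and after DOX withdrawal were kept on feeders in t2iL+Gö, which joins 1 μM CHIR99021, 1 μM PD0325901, LIF and 5 μM of the protein kinase C inhibitor Gö6983. The libraries are described as biological replicates, and the sources used here do not say if the reset cultures were derived independently. The part of mouse feeder DNA in the calls was not tested.

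Tandem repeats are hard to place in a reference sequence. Human centromeres are built of alpha satellite, a unit of about 171 bases repeated over long arrays, and the heterochromatin beside several centromeres holds the classical satellites II and III, which are diverged repeats of the pentamer GGAAT. The ribosomal RNA genes (rDNA) form further tandem arrays on the short arms of the acrocentric chromosomes, each unit carrying the 18S, 5.8S and 28S genes followed by a long intergenic spacer. In somatic cells satellite DNA is usually heavily methylated, whereas rDNA copies are methylated in part and those in use lack methylation at the promoter. Where a reference holds few copies of such a repeat, reads from the other copies align to those few, and the level at a CpG is then an average over copies. A copy that carries T in place of the C of the CpG is scored as unmethylated in both conditions.

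The sequence around the loci was sorted into 4 classes after the methylation values were known, so the classes are used to describe and no test was made between them. The 45 GGAAT loci have at least 20% of their bases in GGAAT or its reverse complement ATTCC, counted on both strands. The share was taken with 500 bases added to each side of a locus. It was reached by 2 of 10718 autosomal windows of 1 kb placed every 250000 bases (0.0187%). The 92 long-period loci matched themselves in at least 40% of positions at a shift of 169 to 173 bases. The shift of 171 had the best mean match over all loci. This match was taken with 1500 bases added to each side of a locus. With 1500 bases to each side of their centre, 33 of those windows reached it (0.308%). Shorter repeats can reach it too, since the locus at chr2:90485427 matched 46.8% at 169 bases and 45.1% at 5 bases. The 30 rDNA-like loci align to the rDNA unit of an unplaced contig of the reference with at least 85% identity over at least 100 bases, and 82 loci fell in no class. The following stretches of the plus strand of GRCh37 carry many of the member CpGs named later, which are in capitals. The first, from chr16:46393013-46393252, has 25.0% of its bases in the pentamer or its complement and 15 member CpGs.
GGAAT locus, chromosome 16: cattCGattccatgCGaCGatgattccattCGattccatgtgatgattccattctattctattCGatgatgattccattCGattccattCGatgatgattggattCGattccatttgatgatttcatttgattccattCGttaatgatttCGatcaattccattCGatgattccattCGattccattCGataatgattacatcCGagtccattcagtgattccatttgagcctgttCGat
The next pair are consecutive units from chr6:58777227-58777397 and chr6:58777398-58777568, the pair with the best self-match in that locus, and 137 of their 171 bases (80.1%) are the same. The first unit holds 3 member CpGs and the second has no CpG, so neighbouring copies of this unit differ in their CpGs.
First 171-base unit, chromosome 6: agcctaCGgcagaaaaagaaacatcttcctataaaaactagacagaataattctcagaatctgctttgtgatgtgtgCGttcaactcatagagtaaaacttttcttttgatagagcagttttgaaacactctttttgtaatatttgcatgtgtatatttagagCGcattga
Second 171-base unit, chromosome 6: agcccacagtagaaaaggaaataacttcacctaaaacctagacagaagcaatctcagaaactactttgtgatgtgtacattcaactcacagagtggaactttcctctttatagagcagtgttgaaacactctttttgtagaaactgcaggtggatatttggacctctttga
The stretch from chr21:9826500-9826699 has a GC content of 90.0% and 50 member CpGs, and that from chr1:156186355-156186554, in an intron of PMF1, has 30. The stretch from chr16:14580856-14580995 lies in an intron of PARN and matches the rDNA spacer, with 8 member CpGs among 11.
rDNA-like locus, chromosome 21: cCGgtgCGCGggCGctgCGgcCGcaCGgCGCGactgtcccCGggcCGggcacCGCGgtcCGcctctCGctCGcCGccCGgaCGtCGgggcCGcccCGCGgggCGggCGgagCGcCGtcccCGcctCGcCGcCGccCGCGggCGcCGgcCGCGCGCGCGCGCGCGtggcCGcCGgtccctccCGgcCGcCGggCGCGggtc
rDNA-like locus in PMF1: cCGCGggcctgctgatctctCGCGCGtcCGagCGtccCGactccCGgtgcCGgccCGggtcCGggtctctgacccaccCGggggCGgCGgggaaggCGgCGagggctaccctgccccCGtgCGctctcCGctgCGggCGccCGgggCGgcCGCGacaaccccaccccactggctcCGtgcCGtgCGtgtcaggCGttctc
rDNA-like locus in PARN: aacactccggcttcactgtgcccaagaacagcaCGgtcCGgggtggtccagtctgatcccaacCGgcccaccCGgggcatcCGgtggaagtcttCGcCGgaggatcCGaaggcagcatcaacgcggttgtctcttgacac
The last, from chr17:41400354-41400553, belongs to the largest locus without a class, with 14 member CpGs.
Unclassed locus, chromosome 17: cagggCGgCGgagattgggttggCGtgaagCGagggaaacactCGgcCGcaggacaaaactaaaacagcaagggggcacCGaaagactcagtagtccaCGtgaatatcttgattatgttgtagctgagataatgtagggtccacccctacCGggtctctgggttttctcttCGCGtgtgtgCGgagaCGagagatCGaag

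The member CpGs lay mostly beside centromeres and assembly gaps. Of the 2776, 2184 (78.7%) were within 100 kb of a gap in the reference, where 2.41% of all autosomal CpGs are. Within 1 Mb of the longest gap of the chromosome, which on most chromosomes holds the centromere, were 2110 members (76.0%) against 1.26% of all CpGs. Chromosome ends were not favoured, with 32 members (1.15%) in 7 loci within 1 Mb of an end against 2.88% of all CpGs. Chromosome 16 carried 746 members, chromosome 10 carried 463 and chromosome 21 carried 432, and chromosomes 13 and 22 had no member. Of the 249 loci, 28 overlapped the body of a protein-coding gene, and 12 of these were rDNA-like. The 31 bases around a member CpG occurred once in the reference for 39.1% of members and for 52.7% of the surrounding CpGs, and once after bisulfite conversion in silico for 24.5% and 42.0%. A part of the members therefore had a unique sequence in the reference.

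Over all autosomal CpGs the mean depth was 2.53 to 3.5 calls per CpG and library. The median locus had 16 times the mean depth of its library in conventional cells and 16.7 times in reset cells. The locus with the highest mean, of 171-base units at chr6:58776467-58779842, averaged 176 calls per CpG and library. The calls had an upper limit, since the highest count at a member CpG was 202 or 203 in every one of the 6 libraries although their depths differed, and 155 members of 10 loci had at least 190 calls in some library. At the loci with the most calls, neither their order by depth nor the ratio of calls between conditions can therefore be read from these counts. The raw calls were mostly fewer in reset libraries, with a median over loci of 45.7 per CpG and library against 54 in conventional ones, and were higher in reset cells at 23 of 249 loci. Divided by the mean depth of the library, which was lower in reset cells, they gave a ratio of reset to conventional above 1 at 197 of 249 loci, with a median of 1.12 and a range from 0.778 to 1.51. Since coverage chose the loci, these ratios are given without a test, and their part in the methylation values was not tested. How far the upper limit on calls bears on the ratios at loci with fewer calls was not tested either. The share of calls on the plus strand ran from 0.667 to 99.6% between loci. On chromosome 4 the 19 GGAAT loci had 7.49 to 97.5% of calls on the plus strand.

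CpG methylation at the loci fell in reset cells. Averaged over the 249 loci it was 64.4%, 64.5% and 64.7% in the conventional libraries and 15.5%, 16.2% and 16% in the reset libraries, so the groups did not overlap. The means were 64.6% ± 0.140 and 15.9% ± 0.377 (SD, n = 3 each), a loss of 48.7 percentage points or 75.4% of the conventional level (exact permutation test over libraries, two-sided p = 0.1, and 3 against 3 can give none smaller). With each member CpG counted equally, the levels were 75.7% ± 0.720 and 10.2% ± 0.417 (SD, n = 3), a loss of 86.6%. All autosomal calls together gave levels between 84.4 and 84.7% in conventional cells and between 29.5 and 30.3% in reset cells.

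Member by member, 2702 of 2776 CpGs (97.3%) were lower in reset cells with a quasi-binomial model of the calls in each library, adjusted by the Benjamini-Hochberg method over all 12121 autosomal CpGs with at least 10 calls in every library. Of all CpGs tested, 91% were lower. This share includes the members and is not matched to them in depth, here and for the classes below. Without the members, 8327 of 9345 CpGs were lower. In a fit of CpGs with at least 20 calls in every library, 1323 of the 1426 that were not members were lower. One member was higher, against 0.132% of all CpGs tested. It lies at chr5:49405869 in a long-period locus, with 6.80%, 5.26% and 4.23% in conventional and 11.6%, 15.3% and 8.94% in reset libraries (quasi-binomial test, adjusted p = 0.00989). The call was lost without reset replicate 2 and with the replicate block, which left 0 members higher. Of the 73 members called in neither direction, 45 were below 10% in conventional cells, and their median level was 6.73% there and 3.41% in reset cells. Each of the 1678 members at 80% or more in conventional cells was lower, as were 99.8% of the 5928 CpGs tested that started there, and these members went from 89.3 to 11.6% on average.

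At the level of whole loci, all 3 reset libraries lay below all 3 conventional libraries at 241 of 249 loci (96.8%). The same held for the surroundings of all 249 loci (100%), defined further on, and for 91.8% of the 12121 single CpGs tested. Overlap was seen at 8 loci, 6 of them long-period loci, with 1 or 2 member CpGs each. A pair of these, named after their values were seen, lie in pseudogenes inside coding genes. One lies at chr5:134263455-134263483 in MTND4P12, a pseudogene of a mitochondrial gene, inside PCBD2, and aligns to the mitochondrial genome with 95.7% identity. Its levels were 2.80%, 0% and 4.23% in conventional and 3.68%, 1.36% and 0.735% in reset libraries, while the mitochondrial genome in the same libraries had 0.251 to 0.420%. The other lies at chr10:103124641-103124658 in RNU2-59P, a pseudogene of the U2 spliceosomal RNA inside BTRC, with 2.82%, 10.4% and 11.3% against 0%, 2.94% and 0%.

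**Figure D1:**
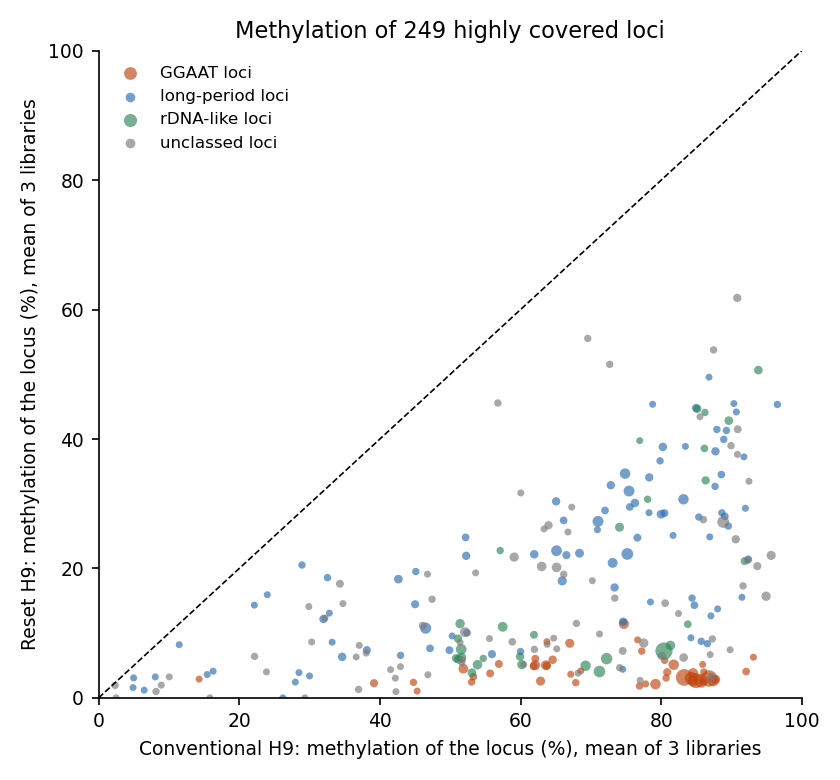
Methylation level of each of the 249 loci in conventional cells (x axis, percent, mean of 3 libraries) and reset cells (y axis, percent, mean of 3 libraries), with point area growing with the number of member CpGs, colour giving the class and the dashed line marking equal levels. All loci lie below the line, and the GGAAT loci lie along the bottom, at or below 11.4% in reset cells.

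The GGAAT loci lost the most. Averaged over the 45 loci, levels were 70.2%, 70.1% and 72.2% in conventional libraries and 4.17%, 4.56% and 3.91% in reset libraries, a loss of 94.1% of the conventional level. Every one of the 45 had its groups apart, as did the surroundings of all loci, and 1263 of their 1268 member CpGs (99.6%) were lower, against 91% of all CpGs tested. No GGAAT locus kept more than 11.4% in reset cells, while conventional levels ran from 14.3 to 93.1%. The sequence context of these CpGs was narrow, with ATCGAA or its complement TTCGAT at 594 of 1268 members (46.8%) against 0.615% of all autosomal CpGs, sampled at every 20th.

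The largest array was on chromosome 16, where 7 GGAAT loci with 674 member CpGs spanned chr16:46385812-46435537, starting 11 bases from an assembly gap. Levels over these CpGs were 85.8%, 85.3% and 85.6% in conventional and 2.52%, 2.95% and 2.83% in reset libraries. The first locus of the array, chr16:46385812-46396841, which holds the chromosome 16 stretch printed above, had 270 members and fell from 86.8% ± 0.199 to 3.00% ± 0.348 (SD, n = 3). Each of its 270 members was lower, against 11029 of all 12121 CpGs tested. Among the 5928 CpGs tested that started at 80% or more in conventional cells, 99.8% were lower. The loci at chr16:46398536-46413400, chr16:46415544-46418399, chr16:46423935-46430035 and chr16:46434335-46435537 fell to 2.66%, 2.68%, 2.62% and 2.88%, from 85%, 87.4%, 85.7% and 87.8%. Within the first locus the levels of single CpGs had an SD of 7.77 percentage points in conventional cells and 1.58 in reset cells, whose mean was 3.00%.

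Chromosome 10 had a similar array. Its largest locus, chr10:42383301-42397262, had 290 members with levels of 83.1%, 83.2% and 83.5% in conventional and 3.02%, 3.14% and 3.32% in reset libraries. The locus at chr10:42596780-42600459, 93 bases from a gap, had 83 members and fell from 84.3% ± 0.283 to 3.02% ± 0.220 (SD, n = 3). On chromosome 4 the stretch chr4:49094143-49659627 held 114 members, 102 of them of GGAAT loci, and started lower, at 61.0% ± 0.360, falling to 5.04% ± 0.352 (SD, n = 3). A single GGAAT locus on chromosome 1 was the one with the highest reset level of the class.

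The long-period loci kept more. Over the 92 loci levels were 63.6%, 63.8% and 63.8% in conventional and 20.5%, 21.2% and 22% in reset libraries, a loss of 66.7%. Of their 518 member CpGs, 469 (90.5%) were lower, which is near the 91% of all CpGs tested. Of the 92 loci, 86 had their groups apart, against 91.8% of single CpGs tested and the surroundings of all loci, and reset levels ran from 0 to 49.6%. The one with the most calls, at chr6:58776467-58779842, whose units are printed above, had levels of 75.0%, 74.9% and 75.7% in conventional and 21.4%, 21.8% and 23.4% in reset libraries over 52 members. At chr1:121482207-121485400, 35 bases from the centromere gap of chromosome 1, 35 members went from 75.4% ± 0.241 to 32% ± 0.848 (SD, n = 3). The levels of single sites had SDs of 24.7 points in conventional and 12.3 points in reset cells at the chromosome 6 locus. Over the 59 long-period loci with more than 1 member the median SD between sites was 23.6 points in conventional and 11.4 in reset cells, against 16.6 and 1.85 over 36 GGAAT loci, whose reset levels were at most 11.4%. On chromosome 19 the 42 members of chr19:27732032-27740184 fell from 74.6% ± 0.881 to 35.0% ± 0.130 (SD, n = 3). The most frequent contexts were AACGGG (14.9% of members against 0.690% of all CpGs) and AACGAA (13.9% against 1.09%), both strands counted.

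Among loci with at least 5 members, the smallest losses in points were at 4 long-period loci and 1 unclassed locus. The long-period loci, at chr2:92312179-92313957, chr11:51579619-51580545, chr18:18511738-18513064 and chr21:10698184-10700200, started low, at 52.3%, 32%, 42.6% and 34.6%, and fell to 21.9%, 12.2%, 18.3% and 6.33%. The unclassed locus was different in that it started high and stayed high. It lies at chr4:190802459-190802599, in an intron of the lncRNA gene FRG1-DT near the end of the long arm, and had 89.0%, 91.4% and 92.0% in conventional and 61.8%, 62.4% and 61.2% in reset libraries over 6 members. The CpGs around it fell from 70.5% ± 0.834 to 23.3% ± 0.40 (SD, n = 3).

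**Figure D2:**
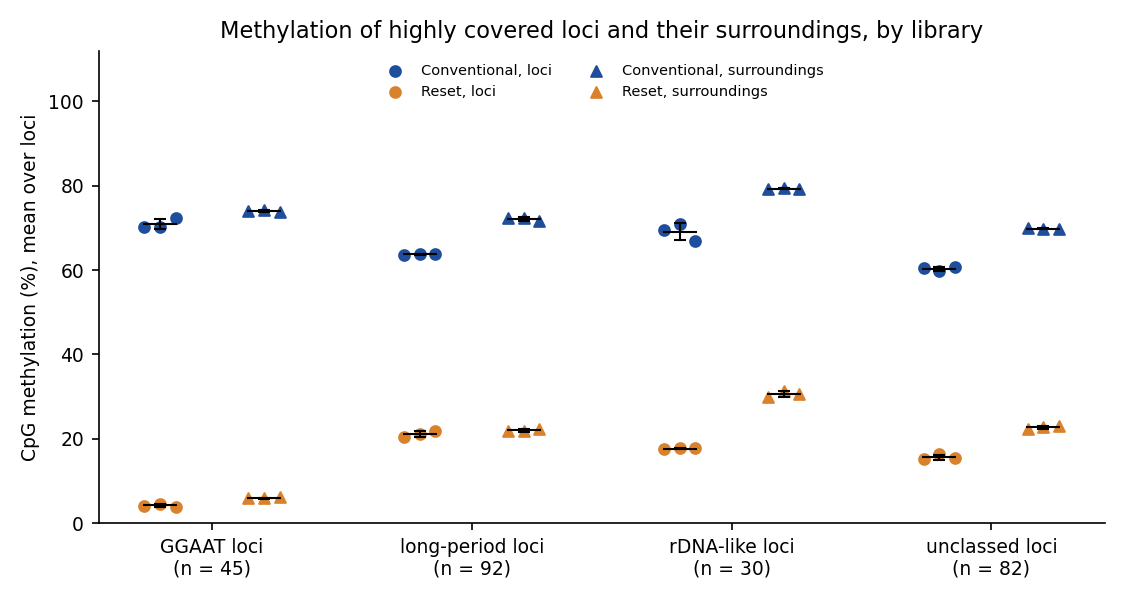
CpG methylation (y axis, percent) averaged over the loci of each class (circles) and over their surroundings within 50 kb (triangles), with 1 point per library, blue for conventional and orange for reset, and the mean with its SD over 3 libraries in black. In reset cells the GGAAT loci and their surroundings lie lowest, and rDNA-like loci lie below their surroundings, at 17.7% against 30.7%.

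The rDNA-like loci were not alike. Over the 30 loci, levels were 69.5%, 70.9% and 66.9% in conventional and 17.6%, 17.7% and 17.7% in reset libraries, and 680 of 682 member CpGs (99.7%) were lower, against 91% of all CpGs tested. Loci were placed in the repeat unit of 43972 bases by the position of their best match from 5.8S, in the direction of transcription, and split at 8 kb after the values were seen. The 16 loci from 6.60 kb before to 7.92 kb after 5.8S, a stretch that includes the 18S and 28S genes, lost 89.0% of their level, going from 60.9% ± 3.42 to 6.69% ± 0.118 (SD, n = 3). Their reset levels lay between 3.88 and 11.5%. The 14 loci from 10.8 to 32.5 kb match the intergenic spacer. They lost 61.4%, going from 78.4% ± 0.466 to 30.3% ± 0.0959 (SD, n = 3). Their reset levels lay between 6.12 and 50.6%. Most of them lie in the stretches chr2:133016870-133032556 and chr16:33953135-33959283, where neighbouring loci share surroundings. Identity to the unit was 86.1 to 93.6% in these stretches, against 88.8 to 99.7% at the 16 loci nearer 5.8S.

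**Figure D3:**
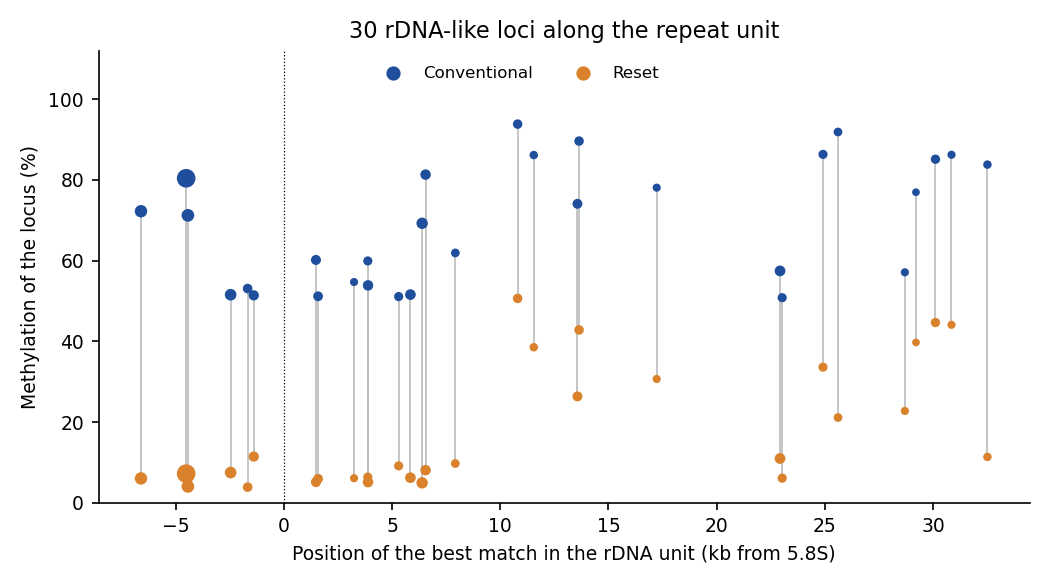
Methylation level (y axis, percent, mean of 3 libraries) of the 30 rDNA-like loci in conventional (blue) and reset cells (orange) against the position of their best match in the rDNA unit (x axis, kb from 5.8S, dotted line at 5.8S), with point area growing with the number of member CpGs and grey lines joining the values of a locus. Reset levels stay at or below 11.5% up to 7.92 kb and reach 50.6% beyond 10.8 kb.

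The locus with the most members of all, chr21:9825449-9827548, held 334 CpGs over 2100 bases, with 163 calls per CpG and library and 99.4% identity to the rDNA unit 4.51 kb before 5.8S. It holds MIR3648 and MIR3687, annotated microRNA genes whose sequence lies within the ribosomal transcript. Levels were 80.5%, 82.9% and 77.8% in conventional and 5.8%, 9.60% and 6.32% in reset libraries. Each of the 334 CpGs was lower, against 11029 of all 12121 CpGs tested. Among the 5928 CpGs tested that started at 80% or more in conventional cells, 99.8% were lower. All CpGs of this locus are members. With 334 CpGs in 2100 bases its sequence is CpG-dense, as in the chromosome 21 stretch printed above. The surrounding CpGs had lower conventional levels, at 59.8% ± 0.945, and 12.1% ± 1.04 in reset cells (SD, n = 3).

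A pair of loci that match the same end of the unit differed between conventional libraries. At chr1:156186285-156186619, in an intron of PMF1, which encodes a kinetochore protein, conventional levels over 45 members were 67.3%, 83.2% and 66.2%, and reset levels 6.32%, 6.69% and 5.16%. At chr20:26188828-26190202, in an exon of the lncRNA gene MIR663AHG, conventional levels over 50 members were 70.3%, 82.6% and 60.8%, and reset levels 3.68%, 4.65% and 3.86%. Conventional replicate 2 was the highest at both, by over 10 points. Over all 16 loci near 5.8S it was also the highest, with 61.7%, 63.9% and 57.2% in the conventional libraries, while these differed by less than 0.3 points in the mean over all 249 loci. The groups still did not overlap at either locus, as at 91.8% of the single CpGs tested and in the surroundings of all 249 loci.

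Several rDNA-like loci lay in introns of coding genes far from the longest gap of their chromosome. They were found in HFM1, a meiotic helicase gene, in DLG2, a gene of a synaptic scaffold protein, in PDE3A, a phosphodiesterase gene, in UNC45B, a gene of a myosin chaperone, and in MYO1D, PID1, SLCO5A1, MAN1A1 and ANKRD30BL. In these 9 genes conventional levels lay between 51.1% (SLCO5A1) and 81.3% (MYO1D) and reset levels between 3.88% (PDE3A) and 11.5% (ANKRD30BL). The ANKRD30BL locus belongs to a stretch of 10 loci, chr2:133006623-133032556, most of whose members are of rDNA-like loci. A long-period locus at chr2:133006623 lies in the same gene. At any rDNA-like locus, reads from rDNA copies elsewhere may be among the calls. The levels may therefore not be those of the introns, which was not tested. The HFM1 locus had 99.7% identity to the unit and 47.7 and 59.1 times the library depth in conventional and reset cells. Its raw calls averaged 161 and 161.6 per CpG and library and reached 197, near the upper limit. The ratio of calls between conditions can therefore not be read at this locus. The HFM1 locus, chr1:91852791-91853096, averaged 161 calls over 18 members and fell from 51.6% ± 2.68 to 6.23% ± 1.34 (SD, n = 3), whereas CpGs within 50 kb fell from 85.3 to 22.5%. The PDE3A locus, chr12:20704391-20704493, had levels of 53.6%, 54.3% and 51.4% in conventional and 3.73%, 3.70% and 4.21% in reset libraries, with 90.2 and 16% around it. The DLG2 locus, chr11:85195031-85195199, fell from 51.2 to 5.96%, with 90.4 and 34.4% around it. The UNC45B locus, chr17:33478132-33478258, fell from 60.2 to 5.14%, with 85.1 and 39.7% around it. All of these match the part of the unit within 8 kb of 5.8S. In 2 further coding genes the locus matches the spacer. PARN, a gene of a poly(A)-specific ribonuclease, held a locus at chr16:14580889-14580963, which matches the spacer at 10.8 kb and went from 96.4%, 93.7% and 91.4% to 55.1%, 50.3% and 46.5%. Around it levels fell from 90.2% ± 0.582 to 40.9% ± 1.62 (SD, n = 3). CDC27, a gene of a subunit of the anaphase-promoting complex, held a single member at chr17:45234324 in an exon, named after its values were seen. It matches the spacer at 29.2 kb and went from 78.3%, 79.6% and 72.9% to 37.3%, 41.5% and 40.4%. Around it levels fell from 87.0% ± 0.919 to 36.9% ± 1.05 (SD, n = 3). The rDNA-like locus at chr2:133020154-133020355, in the processed pseudogene CDC27P1, matches the spacer nearby, at 28.7 kb. The match in CDC27 may thus be one between copies of this gene, which was not tested.

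The unclassed loci had mostly few members, with a single one in 42 of 82. Over the 82 loci, levels were 60.4%, 59.9% and 60.8% in conventional and 15.2%, 16.3% and 15.4% in reset libraries, and 290 of 308 members (94.2%) were lower, against 91% of all CpGs tested. The largest, chr17:41399883-41401136, lay 27822 bases from TMEM106A, with levels of 88.3%, 89.4% and 88.9% in conventional and 26.8%, 28.1% and 26.6% in reset libraries over 56 members. Its surroundings had much the same reset level, 28.6% ± 0.422 (SD, n = 3). Among loci with at least 5 members, the largest loss outside the chromosome 16 array was in an intron of SENP5, a gene of a SUMO protease, at chr3:196625630-196625734, where 7 members went from 87.7%, 88.4% and 85.4% to 3.44%, 3.61% and 2.62%. The CpGs around it fell from 80.5% ± 1.42 to 31% ± 1.58 (SD, n = 3). In an intron of CACNA1C, a calcium channel gene, 6 members at chr12:2365046-2365197 fell from 90.6% ± 1.77 to 24.5% ± 1.75 (SD, n = 3). The start of chromosome 7 held 1 member, at chr7:24405 in the lncRNA gene FAM157D, which went from 54.8%, 67.2% and 59.3% to 1.79%, 6.0% and 7.69%.

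The loss at the loci was then set against that of the CpGs around them. Surroundings were the CpGs within 50 kb of a locus with fewer than 30 calls in every library, 104973 in all, and CpGs near several loci counted for each of them. Averaged over the 249 loci, the surroundings fell from 72.6% ± 0.257 to 20.4% ± 0.297 (SD, n = 3), by 52.2 points or 71.9% of the conventional level. The loci started 8.05 points lower than their surroundings and ended 4.49 points lower. In points, the loci therefore lost 3.56 less than their surroundings, but as a share of the conventional level they lost 3.46 percentage points more. The tests compared the difference in level between loci and surroundings and, for the share, the log2 ratio of these levels. Both gave the smallest possible p (exact permutation tests over libraries, two-sided p = 0.1). The difference between locus and surroundings was -8.33, -8.23 and -7.60 points in conventional and -4.60, -4.26 and -4.62 points in reset libraries, without overlap. The sign of the difference in points depended on how loci were counted. With each member CpG counted equally, the loci lost 5.70 points more than their surroundings, with loci of at least 3 members 0.609 more and with members of at least 50 calls 0.873 more. The larger relative loss at the loci held under each of these choices, at 6.04, 4.63 and 4.02 percentage points. Both values also moved with the loci and distances taken. Without the long-period loci they were -1.18 points and 7.02 percentage points, without the rDNA-like or the unclassed loci the relative difference was 2.00, and with surroundings within 10 kb the difference in points was -2.09.

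Locus by locus, the loss in points was larger than in the surroundings at 124 loci and smaller at 125. The level kept in reset cells, as a share of the conventional level, was lower than in the surroundings at 155 of 249 loci, with medians of 19.1% at the loci and 29.6% in the surroundings. By class, GGAAT loci lost 94.1% against 92.0% around them, long-period loci 66.7% against 69.5%, rDNA-like loci 74.4% against 61.4% and unclassed loci 74.0% against 67.5%. These means cover loci on both sides of their surroundings, with a median absolute difference of 2.71 percentage points at GGAAT loci, 11.8 at long-period loci, 12.7 at rDNA-like loci and 14.2 at unclassed loci. The locus lost the larger share at 34 of 45 GGAAT, 40 of 92 long-period, 25 of 30 rDNA-like and 56 of 82 unclassed loci.

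**Figure D4:**
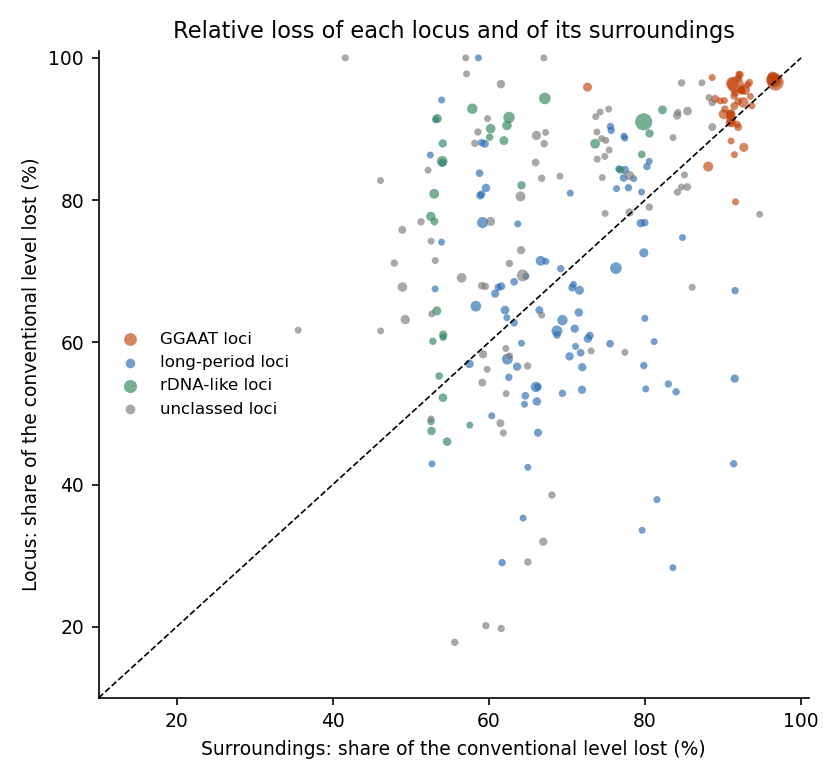
Share of the conventional level lost (percent) at each of the 249 loci (y axis) against the share lost by the CpGs within 50 kb (x axis), with point area growing with the number of member CpGs, colour giving the class and the dashed line marking equal shares. GGAAT loci crowd at the upper right, many rDNA-like loci lie above the line, and long-period loci lie on both sides of it.

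With distance from a locus the classes behaved differently. CpGs of lower coverage inside the GGAAT loci had 80.8% ± 0.416 in conventional and 3.57% ± 0.374 in reset cells, much as the members did (83.1% ± 0.0651 and 3.18% ± 0.219, calls summed). From 10 to 50 kb away reset levels were still 5.83% ± 0.163, against 79.3% ± 0.241 in conventional cells (SD, n = 3). Near the long-period loci reset levels were 24.6% at members and 24.5% at other CpGs inside the loci. Outside these loci they were 23.1% within 2 kb, 25.3% from 2 to 10 kb and 21.9% from 10 to 50 kb. At the rDNA-like loci, calls summed, reset levels were 8.13% ± 1.34 at members, 18.8% ± 2.94 at other CpGs inside the loci and 33.9% ± 1.01 within 2 kb outside (SD, n = 3). Conventional levels there were 75.5%, 60.1% and 77.6%. The value at members rests largely on the chromosome 21 locus, with 334 of the 682 CpGs. With each locus counted equally, the 16 loci within 8 kb of 5.8S had 6.69% in reset cells against 28.1% in their surroundings, and the 14 spacer loci had 30.3% against 33.5%.

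From 5 calls in the lowest library upwards, mean reset levels were lower in each deeper group of CpGs. CpGs whose lowest library had 5 to 9 calls averaged 85.6% ± 0.0765 in conventional and 24.8% ± 0.581 in reset cells, those with 10 to 14 calls 69.7% ± 0.227 and 17.7% ± 0.399, and those with 20 to 29 calls 67.4% ± 0.291 and 13.7% ± 0.234 (SD, n = 3). Among members the means were 71.1% ± 0.344 and 11.4% ± 0.221 at 30 to 49 calls, 77.5% ± 0.596 and 9.93% ± 0.260 at 50 to 99, and 79.6% ± 1.42 and 8.99% ± 0.843 at 100 or more. The make-up of these groups changed too. Of the 844 members with at least 100 calls, 405 belonged to rDNA-like and 282 to GGAAT loci. In the unclassed loci the order did not hold, with reset means of 17.4% at 30 to 49 calls, 22.7% at 50 to 99 and 9.22% at 100 or more, the last over 17 CpGs. Within the long-period loci the order was the other way, with 20.8% ± 0.447 in reset cells at 30 to 49 calls and 26.9% ± 0.594 at 100 or more (SD, n = 3). Around the threshold, the 159 members with 30 or 31 calls in their lowest library averaged 66.2 and 11.8%, and the 197 CpGs just outside, with 28 or 29 calls, 68.8 and 13.1%.

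**Figure D5:**
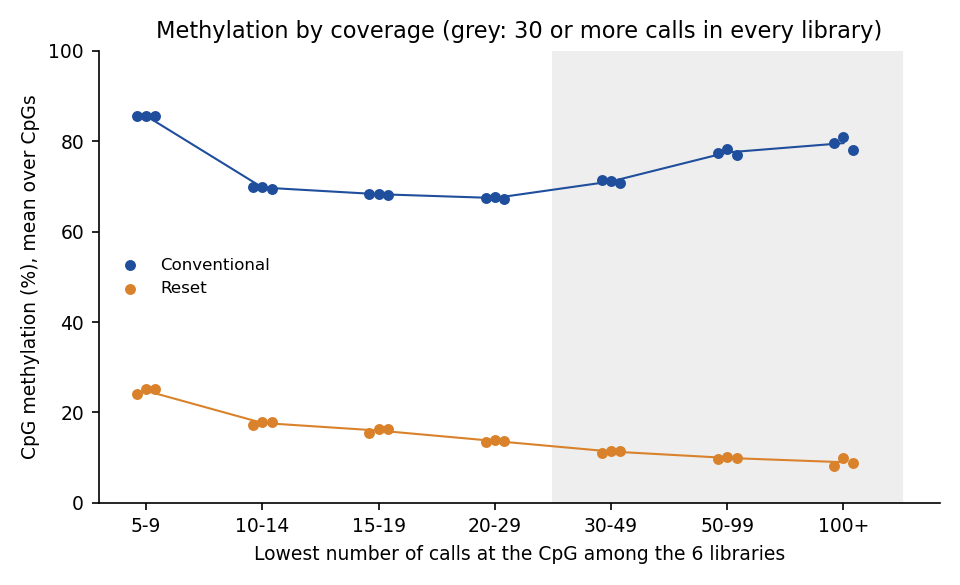
CpG methylation (y axis, percent, mean over CpGs) by the lowest number of calls a CpG has among the 6 libraries (x axis), with 1 point per library, blue for conventional and orange for reset, lines through the means and grey behind the member CpGs. Reset levels go from 24.8% at 5 to 9 calls to 8.99% at 100 or more, while conventional levels pass through a low of 67.4% at 20 to 29 calls.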

How the data were processed

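The authors sonicated DNA of H9 cells, ligated methylated adapters, treated it with bisulfite and amplified it by PCR. Reads were trimmed (Trim Galore) and mapped to GRCh37 by Bismark (0.9.0 with Bowtie2 in the submitters' processing notes, an earlier release in the study's methods). Removal of duplicate reads is not given in the sources used here, so calls may not be independent molecules. Calls at a member CpG reached 202 or 203 at most in libraries of different depth. The relation of this limit to duplicate removal was not tested. The deposited files give, for each CpG cytosine, a count of methylated and one of unmethylated calls, without normalization, and a deposited percent, which was used to check the counts. The libraries held 70329213 to 98004161 calls, and 99.8% of positions lay at a CpG of the reference when counted from 0. Coordinates are printed from 1.

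Strands were summed and CpGs with at least 30 calls in all 6 libraries merged within 1 kb. A locus level is its methylated calls over all calls. Levels were averaged over loci and compared by exact permutation over libraries. The 12121 CpGs that had 10 calls or more in each library were tested in a quasi-binomial model by a likelihood-ratio F test. Dispersions were squeezed with limma 3.58.1 (R 4.3.3) with a floor of 1, and a Benjamini-Hochberg adjusted p under 0.05 was called. The code was tested on simulated data. Permutation p-values compare libraries with each other. In the model they rest on the spread between libraries, but with the floor never on less than the sampling of calls. Fisher's exact test on pooled calls ignores the spread between libraries. Sequence classes used BLAST+ 2.17.0, genes came from GENCODE release 44 on GRCh37, and no repeat annotation was at hand. Named loci were the 10 with the most members, the 5 with the highest mean calls among those with at least 3 members, the 5 smallest and 5 largest losses among those with at least 5 members, and 10 more within coding genes. Loci named outside this rule were chosen after their values were seen. The members, lists and rule were chosen with earlier results of these data known. Alternatives were other thresholds, merging distances, weights and surroundings, a replicate block, Fisher's exact test and leaving out each library. Chromosomes X and Y, and calls in other contexts, were not analysed here.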

Additional observations from a re-analysis of the deposited data

How the results depend on the processing

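The fall at the loci and the larger share of the conventional level lost at the loci than around them kept their direction under every alternative run. No permutation test over 3 and 3 libraries can pass 0.05, so this says nothing of significance. The loss in points minus that of the surroundings, -3.56, became 0.873 with 50 calls for a member, 5.70 with each member CpG weighted equally and 0.609 with at least 3 members per locus. Without 1 library at a time it ran from -3.79 to -3.42, the fall of the loci from -48.8 to -48.4 points and the relative difference from 3.34 to 3.64 percentage points. A replicate block (exact sign permutation over 3 pairs, smallest p 0.25) gave the same values with p = 0.25. In the model of single CpGs it left 2635 of 2776 members lower and 0 higher, against 9843 lower and 1 higher of all 12121 CpGs tested. Same-numbered libraries did not deviate together (r = 0.0229, 0.0361 and -0.195 over 116 loci), so the numbers were not taken as pairs. Members called higher ran from 0 to 1 and members called lower from 2684 to 2691 without 1 library at a time. Of all 12121 CpGs tested, these fits called 7 to 15 higher and 10700 to 10781 lower. A minimum of 20 calls gave 4202 members in 463 loci, 50 calls 1731 in 124, and merging within 5 kb 131 loci. Without each class of loci in turn, an alternative added after seeing the data, the relative difference ran from 2.00 (without the rDNA-like or the unclassed loci) to 7.02 (without the long-period loci), and the difference in points from -4.42 to -1.18. Copies of a repeat cannot be told apart in these calls, so a level may mix copies with different losses.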
